A study of Mus musculus with 12 samples.

Results

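Amino acid transporters of the liver were followed over 1 day in mouse as 8 of the 22618 genes in the count table: Slc38a2, Slc38a3, Slc38a4, Slc7a2, Slc43a1, Slc3a1, Slc3a2 and Slc25a15. They were taken by symbol, each symbol matched 1 row, and all 8 passed the filter on low counts. The livers came from male mice with both cryptochrome genes, Cry1 and Cry2, knocked out. The animals were of strain C57BL/6j, 12 to 16 weeks old, with the gut microbiome status "conventional raised", and were fed at night. Genotype and feeding schedule are common to all 12 libraries, which leaves time of day as the only contrast. With feeding at night, fed state changes with time of day, and the 2 cannot be told apart. Wild-type livers were not analysed here. Each of 6 times has 2 libraries: zeitgeber time (ZT) 2, 6 and 10, called day here, and ZT 14, 18 and 22, called night, after the usual convention for ZT, since the light schedule is not stated.

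The liver takes up most amino acids that arrive in portal blood and uses them for protein synthesis, glucose production and urea. Sodium-coupled carriers of the SLC38 family bring in small neutral amino acids and glutamine, and Slc7a2 encodes CAT-2, the cationic amino acid carrier for arginine, lysine and ornithine. Slc3a1 and Slc3a2 encode heavy chains, rBAT and 4F2hc (CD98), which carry SLC7 light chains to the cell surface. Slc43a1 encodes the uniporter LAT3 for branched-chain and aromatic amino acids, and Slc25a15 encodes ORC1, which exchanges ornithine for citrulline across the inner mitochondrial membrane in the urea cycle. In fasting, glucagon and glucocorticoids raise hepatic amino acid uptake and catabolism, and cryptochromes act as repressors in the circadian clock and on glucocorticoid and glucagon signalling.

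RefSeq (GRCm38.p6) gave start-site windows, 250 bases before to 50 after, for 6 of the 8 genes: Slc38a2, Slc38a4, Slc43a1, Slc3a1, Slc3a2 and Slc25a15. They were searched on both strands for TGATGNAA (the C/EBP-ATF element bound by ATF4), CACGTG (the E-box of CLOCK:BMAL1), TGTTTAC (FOXO), TTATGNAA (the D-box of PAR bZIP factors), TGACGTCA (the cAMP response element), CAAAGTCCA (HNF4A) and CCAAT. No matched stretch overlapped another, and the windows of Slc38a2 and Slc3a2 held no match to these letters. The windows of Slc3a1, the member that was higher at night, of Slc38a4, which was lower at night, and of both genes with an E-box are shown 5′ to 3′, with matches in capitals. For Slc38a4 the most upstream of 3 start sites is shown, and for Slc25a15 the window with a match, 1 of 2.
Slc3a1, chr17:85028097-85028396, plus strand: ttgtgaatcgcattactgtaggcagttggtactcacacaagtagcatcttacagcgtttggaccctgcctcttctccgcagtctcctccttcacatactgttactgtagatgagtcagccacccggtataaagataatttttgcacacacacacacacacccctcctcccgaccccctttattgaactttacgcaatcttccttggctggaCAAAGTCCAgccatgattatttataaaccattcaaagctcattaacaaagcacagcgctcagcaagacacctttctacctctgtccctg
Slc38a4, chr15:97055907-97056206, minus strand: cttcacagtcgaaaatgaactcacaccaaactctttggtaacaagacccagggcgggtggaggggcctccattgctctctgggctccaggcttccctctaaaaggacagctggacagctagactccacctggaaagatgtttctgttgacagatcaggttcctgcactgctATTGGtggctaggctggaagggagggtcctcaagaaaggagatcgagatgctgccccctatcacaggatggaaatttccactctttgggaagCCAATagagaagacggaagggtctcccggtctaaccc
Slc43a1, chr2:84840073-84840372, plus strand: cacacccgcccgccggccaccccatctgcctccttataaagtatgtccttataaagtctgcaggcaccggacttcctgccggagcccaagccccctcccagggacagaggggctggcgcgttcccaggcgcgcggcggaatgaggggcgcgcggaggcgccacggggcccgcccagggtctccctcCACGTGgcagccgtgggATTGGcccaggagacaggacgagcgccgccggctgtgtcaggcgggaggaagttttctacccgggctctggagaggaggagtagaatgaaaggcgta
Slc25a15, chr8:22398228-22398527, minus strand: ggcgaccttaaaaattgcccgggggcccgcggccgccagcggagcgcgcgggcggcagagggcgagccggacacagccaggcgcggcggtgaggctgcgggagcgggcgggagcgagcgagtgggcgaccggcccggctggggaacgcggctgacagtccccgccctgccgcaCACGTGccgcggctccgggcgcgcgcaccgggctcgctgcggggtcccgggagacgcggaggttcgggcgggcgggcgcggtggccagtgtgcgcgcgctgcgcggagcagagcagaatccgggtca
The capitals in the Slc3a1 window are the HNF4A letters, at position -39 from the start site, which 0.479% of 32544 windows in the table held. The capitals of Slc38a4 are CCAAT in either orientation, present in 37.4% of windows. Slc43a1 and Slc25a15 held CACGTG at positions -64 and -77, as did 7.17% of windows, and Slc43a1 also CCAAT. A match is a description of letters, not a binding site.

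Library totals ran from 34715506 to 46074052 counts. Cry1 and Cry2, the targeted genes, had counts in all 12 libraries (202 to 544 counts for Cry1 and 462 to 819 for Cry2), and gene counts do not show which exons they cover. Hepatocyte markers (Alb, Ttr, Apoa1, Apob, Serpinc1 and Fgb) summed to 84240 to 96080 CPM (counts scaled to library size) at night and 93110 to 119100 by day, and none was at 0 in any library. The 9 pancreatic acinar markers in the table summed to 37.2 CPM in ZT14 replicate 2 and to 6.35 to 18.2 CPM in the other libraries, with 7 of the 9 at 0 in at least 1 library. The 6 erythroid markers were at 117 to 326 CPM at night and 120 to 379 by day, and the 8 lymphocyte markers at 1.96 to 7.64 and 3.81 to 6.66. Kupffer cell markers (6 in the table) summed to 239 to 386 CPM at night and 286 to 440 by day, and sinusoidal endothelial markers (6) to 419 to 499 and 429 to 562. Stellate cell markers (6) summed to 191 to 232 CPM at night and 164 to 243 by day, and cholangiocyte markers (6) to 35.6 to 64.9 and 38.5 to 70.4. The part of these cells in the results was not tested. In bulk tissue, fewer cells of a type and less RNA per cell cannot be told apart. The 4 libraries of ZT02 and ZT06 did not follow their labels closely. Over 9876 genes of at least 5 CPM, scaled per gene, ZT02 replicate 1 was closer to ZT06 replicate 1 (r = 0.48) than to its own partner, ZT02 replicate 2 (r = 0.15). In the same way ZT02 replicate 2 went with ZT06 replicate 2 (r = 0.49), while both ZT06 libraries had r = 0.07. These are correlations across genes, which are not independent replicates. Results were therefore also computed without ZT02 replicate 2 and ZT06 replicate 1, and without ZT02 replicate 1 and ZT06 replicate 2. Whether each library is a different animal is not stated, and the spread behind every p-value may then be technical.

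The 8 genes differed widely in level, and their order depends on the exon length used. By CPM alone, means over the 12 libraries were 1059 for Slc38a3 and 1049 for Slc38a4. Slc38a2 was at 100 CPM, Slc3a2 at 30.8 and Slc3a1 at 27.3. Per kb of exon (GENCODE M21), Slc38a4 stood at 246 ± 57.3 CPM per kb (SD, n = 12) and Slc38a3, the glutamine and histidine carrier SNAT3, at 201 ± 44.7. Slc7a2 was at 74.2 ± 36.0 and Slc25a15 at 47.3 ± 8.59 CPM per kb. Slc3a1 (12.0 ± 6.58), Slc38a2 (11.3 ± 4.22) and Slc3a2 (8.73 ± 0.909) lay close together, and Slc43a1 was lowest at 1.32 ± 0.263 CPM per kb. The levels of Slc25a15 and Slc3a1, and those of Slc3a2 and Slc43a1, did not overlap over the 12 libraries. All other neighbours in this order overlapped in range: Slc38a4 was above Slc38a3 in 11 of 12 libraries, Slc38a3 above Slc7a2 in 11, Slc7a2 above Slc25a15 in 9, Slc3a1 above Slc38a2 in 5 and Slc38a2 above Slc3a2 in 10.

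**Figure D1:**
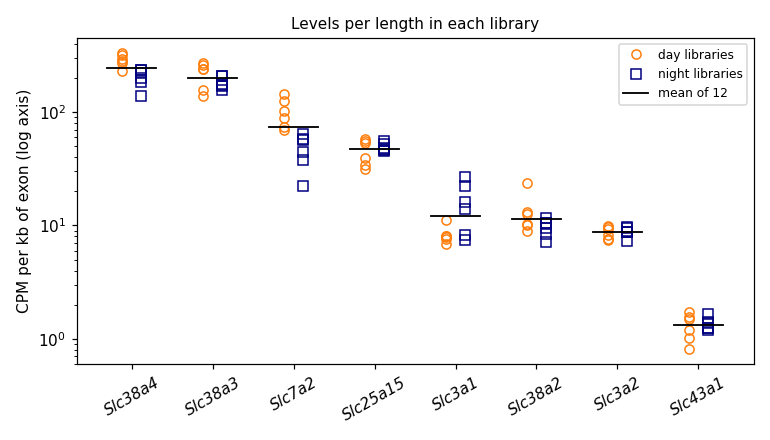
CPM per kb of exon (log axis) of the 8 genes in each library, day libraries as circles and night libraries as squares, with the mean of 12 as a bar. Slc38a4 and Slc38a3 are highest, with means of 246 and 201 CPM per kb, and Slc43a1 is lowest at 1.32.

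The tests of time called 0 to 4 of the 8 genes. In the test of a 24 h rhythm (edgeR quasi-likelihood, Benjamini-Hochberg adjusted p under 0.05 over 17142 genes), 4 of 8 were called, Slc38a3, Slc38a4, Slc3a1 and Slc3a2, against 12.0% of all genes tested. The test of any difference among the 6 times called 2, Slc38a3 and Slc3a1, against 4.82% of all genes. For the mean of the 3 night times minus that of the 3 day times 3 were called, against 9.70% of all genes. Slc38a4 and Slc7a2 were lower at night (4.89% of all genes were called lower) and Slc3a1 was higher (4.80% called higher). The median fitted range, peak over trough, was 1.51-fold over the 8 genes and 1.31-fold over all genes tested. The median night minus day difference was -0.10 on the log2 scale over the 8 genes and 0.01 over all genes.

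**Figure D2:**
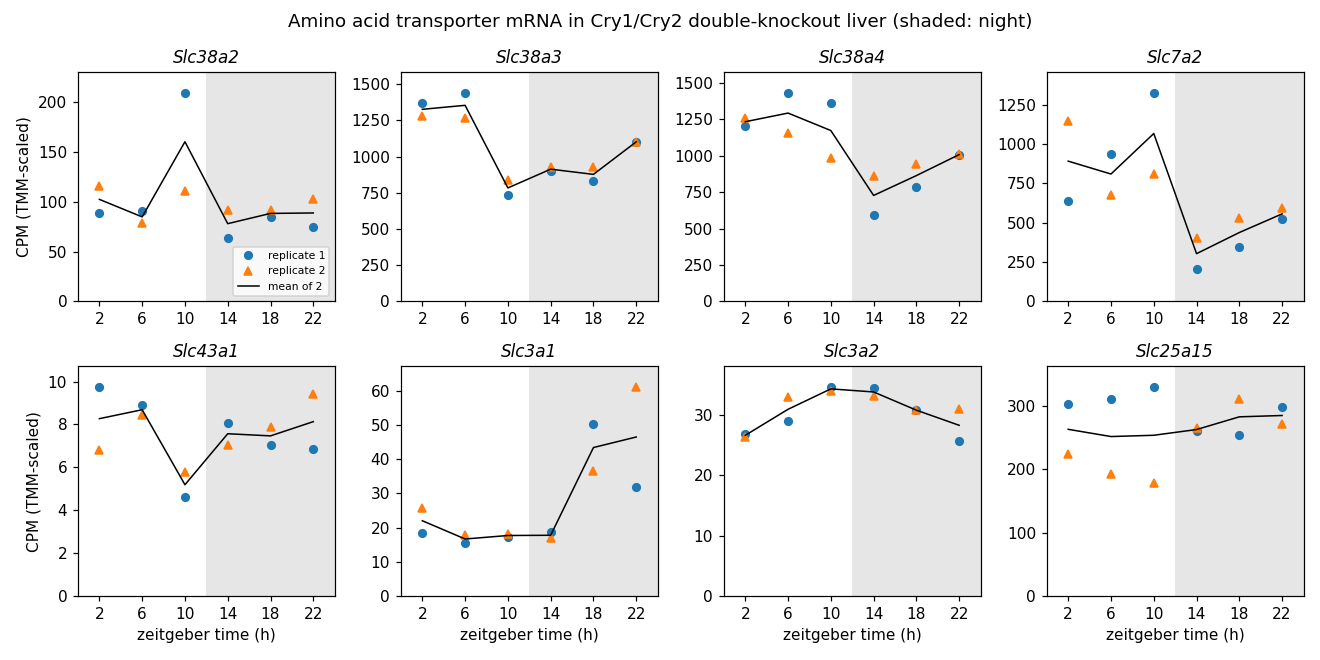
CPM of each gene by zeitgeber time, 1 panel per gene with its own axis from 0, replicate 1 as circles, replicate 2 as triangles and a line through the mean of 2; night is shaded. Slc7a2 is lower in all 6 night libraries than in any day library, and Slc3a1 is highest at ZT18 and ZT22.

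By edgeR neither step between day and night called any of the 8 genes, which is near the small shares over all genes. ZT14 minus ZT10, around the start of night feeding, was called in 0 of 8 by edgeR, against 1.23% of all genes (0.723% higher and 0.508% lower). Of the 8, 4 had an unadjusted p under 0.05, and the share of all genes under it was not counted. DESeq2 called 3 of the 8 and 717 of all 17142 genes, and limma-voom 1 and 205. ZT02 minus ZT22, around the end of night feeding, was called in 0 of 8 by edgeR, against 0.00583% of all genes. Of the 8, 1 had an unadjusted p under 0.05. DESeq2 called 1 of the 8 and 128 of all genes, and limma-voom 0 and 7.

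Slc7a2 (ENSMUSG00000031596, chromosome 8, 40862396 to 40922308, mm10, plus strand, protein-coding) encodes CAT-2, whose liver isoform is a low-affinity, high-capacity carrier; the gene counts do not separate isoforms. Its level was 637 and 1146 CPM in replicates 1 and 2 of ZT02, 940 and 679 at ZT06 and 1326 and 808 at ZT10. At night it was 203 and 404 CPM for ZT14, 348 and 527 for ZT18 and 521 and 591 for ZT22. All 6 night libraries lay below the lowest day library, and the highest library was 6.54 times the lowest. Night stood at 432 ± 143 CPM (SD, n = 6) and day at 923 ± 271, a log2 difference of -1.13 ± 0.22 (SE, 95% interval -1.61 to -0.65, edgeR adjusted p = 0.0117). This call was lost only when ZT02 replicate 2 and ZT06 replicate 1 were both left out (-0.88, adjusted p = 0.0547), of 21 alternatives.

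Between ZT10 and ZT14 the Slc7a2 log2 difference was -1.81 ± 0.38 (SE, edgeR adjusted p = 0.0506), and both ZT14 libraries were below both ZT10 libraries. The adjusted p fell under 0.05 in 12 of 21 alternatives, DESeq2 (0.00589), limma-voom (0.0443) and the fit with replicate number as a block (0.0483) among them, and over all alternatives it was 0.00589 to 0.394. The 24 h curve had a range of 2.78-fold (95% interval 1.33 to 5.84) peaking at ZT 4.98 ± 1.22 h (SE), and was not called (edgeR adjusted p = 0.0638; 0.0355 by DESeq2 and 0.0328 without ZT10 replicate 1). An RNA on the opposite strand, Gm26584 in GENCODE, overlaps the start of Slc7a2 and was at 0.134 to 0.627 CPM.

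**Figure D3:**
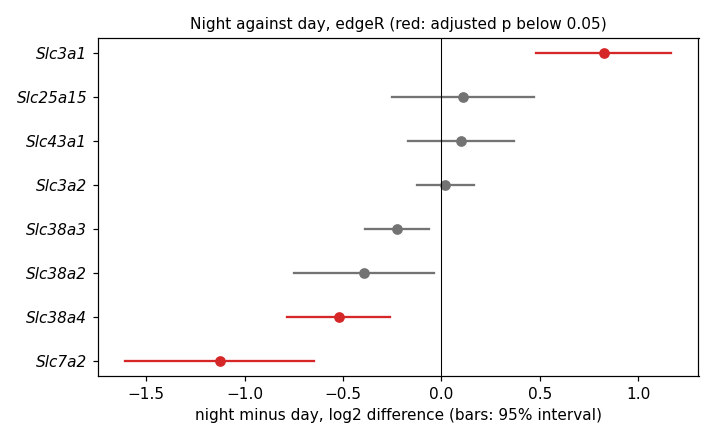
Log2 difference of night minus day for the 8 genes (x axis), with 95% intervals as bars and genes called by edgeR in red. Slc7a2 (-1.13) and Slc38a4 (-0.52) lie below 0 and Slc3a1 (0.82) above it; the other 5 genes were not called.

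Of the SLC38 carriers, Slc38a4 and Slc38a3 passed the 24 h test and Slc38a2 did not; their courses were not tested against each other. Slc38a4 (ENSMUSG00000022464, chromosome 15, 96994820 to 97055956, minus strand) encodes SNAT4, a carrier of small neutral amino acids that is most abundant in liver; its start-site window is given above. It was at 1204 and 1262 CPM in replicates 1 and 2 of ZT02, 1432 and 1153 at ZT06 and 1360 and 985 at ZT10, then 595 and 860 for ZT14, 784 and 943 for ZT18, and 1006 and 1009 for ZT22. In Slc38a4, 4 of the 6 night libraries lay below every day library, and the 2 libraries of ZT22 lay between the day libraries. Night was at 866 ± 159 CPM (SD, n = 6) and day at 1233 ± 158, and the fitted log2 difference was -0.52 ± 0.12 (SE; adjusted p = 0.0229 by edgeR). The call was lost without ZT02 replicate 2, ZT14 replicate 1, ZT18 replicate 1 or either library of ZT22, and without ZT02 replicate 2 and ZT06 replicate 1 together (-0.45, adjusted p = 0.0943, the highest of 21 alternatives).

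The 24 h curve of Slc38a4 had a range of 1.73-fold (95% interval 1.29 to 2.33) with a peak at ZT 4.31 ± 0.91 h (SE, edgeR adjusted p = 0.03). It was no longer called without ZT02 replicate 2, ZT06 replicate 1, ZT14 replicate 2 or ZT18 replicate 1 (adjusted p = 0.0547 to 0.0735), nor under either exclusion of a ZT02 and a ZT06 library (0.117 and 0.064). From ZT10 to ZT14 the log2 difference was -0.69 ± 0.21 (SE, edgeR adjusted p = 0.131; DESeq2 0.0179), with both ZT14 libraries below both of ZT10.

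Slc38a3 (ENSMUSG00000010064, chromosome 9, 107650634 to 107669530, minus strand) was high early in the day and lower from ZT10 on. It stood at 1373 and 1280 CPM at ZT02 and 1441 and 1267 at ZT06, then at 732 and 836 at ZT10. Night values were 898 and 928 for ZT14, 830 and 925 for ZT18, and 1103 and 1101 for ZT22. The 4 libraries of ZT02 and ZT06 were above the other 8, and the 2 libraries of ZT10 held the lowest and the third lowest values. The highest mean, at ZT06 (1354 CPM), was followed directly by the lowest, at ZT10 (784). A 24 h cosine does not follow such a step, so its peak time describes the course only roughly. The 6 times differed (edgeR adjusted p = 0.0184), a call lost without ZT18 replicate 1 or ZT18 replicate 2 (0.0656 and 0.06). The 24 h range was 1.67-fold (95% interval 1.31 to 2.12), with a peak at ZT 2.39 ± 0.80 h (SE, edgeR adjusted p = 0.0177), and this call was lost only without ZT02 replicate 1 and ZT06 replicate 2 together (0.0844) among 21 alternatives. Night and day overlapped, at 964 ± 113 and 1155 ± 296 CPM (SD, n = 6 each), and edgeR did not call the difference (-0.22 ± 0.07 on the log2 scale, SE, adjusted p = 0.0795), while DESeq2 did (0.0247).

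Slc38a2 (ENSMUSG00000022462, chromosome 15, 96687392 to 96699730, minus strand) encodes SNAT2, a system A carrier whose gene is induced by amino acid shortage. It was at 88.6 and 116 CPM at ZT02, 90.9 and 78.4 at ZT06, 209 and 111 at ZT10, 63.7 and 92.1 for ZT14, 84.3 and 92.0 for ZT18, and 74.8 and 102 for ZT22. ZT10 replicate 1 stood above all others. With all 12 libraries edgeR did not call the gene: the night minus day log2 difference was -0.40 ± 0.16 (SE, edgeR adjusted p = 0.146), the 24 h range 1.34-fold (adjusted p = 0.39) and ZT14 minus ZT10 -1.04 ± 0.28 (adjusted p = 0.103). DESeq2 called ZT14 minus ZT10 (adjusted p = 0.00394) and the difference among the 6 times (0.00474; edgeR 0.147). Without ZT10 replicate 2, which leaves the high library alone at its time and assumed to vary like the rest, night minus day became -0.53 (edgeR adjusted p = 0.0384) and ZT14 minus ZT10 -1.43 (0.0296).

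Of the heavy chain genes, Slc3a1 was higher at night and Slc3a2 was not called for night minus day. The count table had no row named Slc7a9 or Slc7a13, light chain genes of rBAT, so these partners were not followed. Slc3a1 (ENSMUSG00000024131, chromosome 17, 85028376 to 85064236, plus strand) encodes rBAT, known from cystine and dibasic amino acid reabsorption in kidney. It was at 18.4 and 25.6 CPM at ZT02, 15.4 and 17.9 at ZT06, 17.1 and 18.2 at ZT10 and 18.6 and 16.9 at ZT14, and at 50.2 and 36.7 at ZT18 and 31.9 and 61.1 at ZT22. The 4 libraries of ZT18 and ZT22 were above the other 8, and the ZT14 libraries were within the day range. Night was at 35.9 ± 17.4 CPM (SD, n = 6) and day at 18.8 ± 3.51, a log2 difference of 0.82 ± 0.16 (SE, 95% interval 0.48 to 1.17, edgeR adjusted p = 0.011). The 24 h range was 2.95-fold (95% interval 1.80 to 4.84) with a peak at ZT 20.4 ± 0.77 h (SE, edgeR adjusted p = 0.0069).

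Both Slc3a1 calls, of night minus day and of the 24 h curve, held in all 21 alternatives, with adjusted p up to 0.0427 and 0.0261. The difference among the 6 times (edgeR adjusted p = 0.0179) was lost without ZT18 replicate 1 (0.063). ZT02 minus ZT22 was -1.08 ± 0.27 (SE) on the log2 scale and not called (edgeR adjusted p = 0.289; DESeq2 0.00883), and ZT14 minus ZT10 was 0.01 ± 0.27 (adjusted p = 0.994). The 3′ end of Slc3a1 overlaps Prepl on the opposite strand, and the strand setting of the counting is not given in the sources used here; Prepl was at 24.1 ± 2.58 CPM at night (SD, n = 6) against 21.2 ± 2.12 by day.

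**Figure D4:**
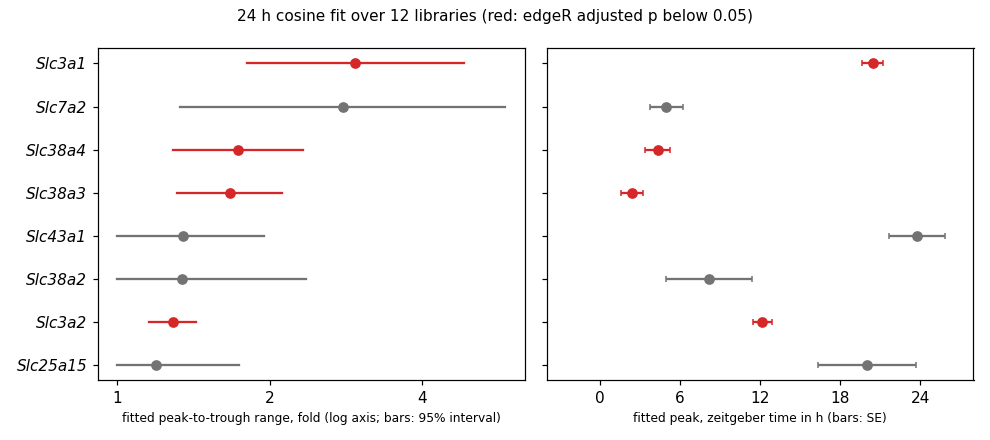
Left, fitted peak-to-trough range of each gene in fold (log axis) with its 95% interval; right, fitted peak in zeitgeber time with its SE; genes called by edgeR in red. Slc3a1 peaks at ZT 20.4, Slc38a3 and Slc38a4 at ZT 2.39 and 4.31, and Slc3a2 at ZT 12.2 with a range of only 1.29-fold.

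Slc3a2 (ENSMUSG00000010095, chromosome 19, 8706882 to 8723369, minus strand), the heavy chain of LAT1 and of the other 4F2hc partners, varied little. It was at 26.8 and 26.4 CPM at ZT02, 29.0 and 32.9 at ZT06, 34.6 and 34.0 at ZT10, 34.5 and 33.2 for ZT14, 30.7 and 30.8 for ZT18, and 25.7 and 30.9 for ZT22. The 4 libraries of ZT10 and ZT14 were above the other 8, and the whole spread was 1.35-fold. The 24 h range was 1.29-fold (95% interval 1.16 to 1.43) with a peak at ZT 12.2 ± 0.71 h (SE, edgeR adjusted p = 0.0409). That call was lost in 12 of 21 alternatives (adjusted p up to 0.119), among them 9 of the 12 single-library exclusions; it held without ZT06 replicate 1, ZT06 replicate 2 or ZT22 replicate 2. Night and day were at 31.0 ± 3.01 and 30.6 ± 3.68 CPM (SD, n = 6 each; log2 difference 0.02 ± 0.07, SE, edgeR adjusted p = 0.882).

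Per kb of exon, Slc3a2 was at 3.05 ± 0.429 times (SD, n = 12) the summed level of its 6 light chain genes in the table, Slc7a5, Slc7a6, Slc7a7, Slc7a8, Slc7a10 and Slc7a11, which stood at 2.89 ± 0.331 CPM per kb. Slc7a5, the LAT1 light chain, was the most abundant of them by CPM, at 4.25 ± 0.686 CPM (SD, n = 12), with a 24 h range of 1.08-fold (edgeR adjusted p = 0.881). Slc7a7, the light chain of the y+LAT1 exchanger, was at 2.96 ± 0.403 CPM (1.22-fold, adjusted p = 0.442). None of the 5 light chains tested was called by edgeR in the 24 h, night minus day or 6-time test (0 at an unadjusted p under 0.05, 0 by DESeq2 and 0 by limma-voom). The shares of all genes called by edgeR in these tests were 12.0%, 9.70% and 4.82%, so 0 of 5 does not set the light chains apart.

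Slc25a15 and Slc43a1 passed no test. Slc25a15 (ENSMUSG00000031482, chromosome 8, 22375551 to 22398597, minus strand), the ornithine and citrulline carrier of mitochondria, was at 302 and 223 CPM at ZT02, 311 and 192 at ZT06, 329 and 178 at ZT10, 260 and 265 for ZT14, 254 and 311 for ZT18, and 298 and 272 for ZT22. The 2 libraries of each day time were far apart, and all 6 night libraries lay between the extremes of the day. Night minus day was 0.11 ± 0.16 (SE, log2, edgeR adjusted p = 0.709), and the 24 h range 1.19-fold with an upper 95% limit of 1.74 (adjusted p = 0.756).

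Slc43a1 (ENSMUSG00000027075, chromosome 2, 84838850 to 84863594, plus strand) was low, at 9.74 and 6.80 CPM at ZT02, 8.91 and 8.46 at ZT06, 4.61 and 5.76 at ZT10, 8.08 and 7.06 for ZT14, 7.04 and 7.90 for ZT18, and 6.83 and 9.43 for ZT22. Both ZT10 libraries were the lowest of the 12. ZT14 minus ZT10 was 0.54 ± 0.21 (SE, log2, edgeR adjusted p = 0.235), and night minus day 0.10 ± 0.12 (adjusted p = 0.649). The 24 h range was 1.35-fold (adjusted p = 0.336).

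The other carriers of amino acids were surveyed by 6 lists of 53 genes, 46 of them in the table and 35 tested. Of the 35, 4 passed the 24 h test, against 12.0% of all genes, and 2 were higher and 1 lower at night (4.80% and 4.89% of all genes), with a median range of 1.26-fold. None was called in the 6-time test by edgeR, against 4.82% of all genes (6 at an unadjusted p under 0.05, 4 by DESeq2 and 0 by limma-voom). Among cell surface carriers of neutral amino acids, 2 of 10 passed the 24 h test (12.0% of all genes did), 1 without ZT14 replicate 2 and 0 without ZT02 replicate 1 and ZT06 replicate 2. Slc6a9, the glycine carrier GLYT1, was lower at night (17.8 ± 3.29 against 22.96 ± 4.27 CPM, SD, n = 6 each, log2 difference -0.37, edgeR adjusted p = 0.0364). Slc1a4, the ASCT1 exchanger, was higher (4.02 ± 0.998 against 2.42 ± 0.808 CPM, log2 difference 0.73, adjusted p = 0.0458). Both night calls were lost in 8 of the 12 fits without 1 library, and the highest adjusted p of any alternative was 0.107 and 0.135.

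Of 8 lysosomal and other internal carriers, 1 passed both tests: Slc36a1, a proton-coupled exporter of lysosomal amino acids, was at 30.9 ± 4.33 CPM at night (SD, n = 6) against 22.2 ± 3.88 by day (0.49 on the log2 scale, edgeR adjusted p = 0.0129, up to 0.0471 over 21 alternatives). Its 24 h call (edgeR adjusted p = 0.0183) was lost without ZT18 replicate 2 (0.0508). Over all genes tested, 12.0% passed the 24 h test and 9.70% the night test. Of 7 mitochondrial carriers 1 passed the 24 h test and none the night test by edgeR (2 at an unadjusted p under 0.05, 1 by DESeq2 and 0 by limma-voom). That gene was Slc25a29, a carrier of basic amino acids, at 2.42 ± 0.728 CPM (SD, n = 12) with a range of 1.85-fold (edgeR adjusted p = 0.0267; lost without ZT02 replicate 2, ZT14 replicate 1 or ZT22 replicate 1, and under both paired exclusions of a ZT02 and a ZT06 library). Slc25a2, the other ornithine carrier, was named after its values were seen: it was at 0.298 CPM per kb against 47.3 for Slc25a15.

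Of the other genes grouped by family with the SLC7 cationic carriers, neither of the 2 tested was called by edgeR. In all 3 tests 0 were at an unadjusted p under 0.05, 0 were called by DESeq2 and 0 by limma-voom. Slc7a1, which encodes CAT-1, was at 0.902 ± 0.213 CPM (SD, n = 12) and Slc7a4 at 1.12 ± 0.335; per kb of exon they stood at 0.0783 and 0.27 CPM per kb, against 74.2 for Slc7a2. Of 3 acidic amino acid carriers none was called by edgeR (1 at an unadjusted p under 0.05 in the 24 h and in the night test, 0 by DESeq2 and 0 by limma-voom). Slc1a2, the glutamate carrier GLT-1, was at 151 ± 23.3 CPM (SD, n = 12) with a range of 1.33-fold (edgeR adjusted p = 0.125), and Slc1a1 at 0.707 ± 0.252 CPM (1.60-fold, 0.459).

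Enzymes that use the transported amino acids were counted by 2 lists. Of 11 urea cycle and glutamine enzymes 0 were called in the 24 h test by edgeR (2 at an unadjusted p under 0.05, 2 by DESeq2 and 0 by limma-voom) and 0 in the night test (1, 1 and 0). Of all genes tested edgeR called 12.0% for 24 h and 9.70% for night minus day, so 0 of 11 does not set this list apart. Cps1, which makes carbamoyl phosphate for the urea cycle, was at 6314 ± 904 CPM (SD, n = 12) and Ass1, argininosuccinate synthase, at 2306 ± 598. Of 30 enzymes of amino acid catabolism 3 passed the 24 h test and 2 were lower at night, none higher, against 12.0% of all genes for 24 h, 4.89% lower and 4.80% higher. Without ZT02 replicate 1 and ZT06 replicate 2 these counts were 0 and 1, and without ZT02 replicate 2 and ZT06 replicate 1 they were 2 and 0. Mat1a, the methionine adenosyltransferase, was at 2643 ± 487 CPM at night (SD, n = 6) against 3373 ± 260 by day (-0.36 on the log2 scale, edgeR adjusted p = 0.0245; up to 0.0836, lost in 5 of the 12 fits without 1 library). Bckdhb, of branched-chain ketoacid dehydrogenase, fell by 0.29 on the log2 scale (adjusted p = 0.0281; up to 0.109, lost in 9 of 12), and Agxt, alanine-glyoxylate aminotransferase, had a range of 1.44-fold (adjusted p = 0.019, lost without ZT02 replicate 2).

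Of 26 genes of the ATF4 amino acid response, to which Slc38a2 and Slc3a2 are known to belong, 7 passed the 24 h test, against 12.0% of all genes, and 3 were higher and 3 lower at night (4.80% and 4.89% of all genes). The 24 h calls numbered 3 when ZT02 replicate 2 was left out with ZT06 replicate 1, 2 when their partners were left out, and 4 without ZT14 replicate 2. Trib3, a pseudokinase induced by ATF4, was at 2.29 ± 0.374 CPM at night (SD, n = 6) against 5.92 ± 2.15 by day, lower by night with a log2 value of -1.30 (edgeR adjusted p = 0.000512). It was the only gene of all tested that edgeR called for ZT02 minus ZT22 (log2 difference 2.00, adjusted p = 0.00948). That call was lost when either library of ZT02, or ZT22 replicate 1, was left out. For ZT14 minus ZT10 edgeR called Trib3 lower (-0.92, adjusted p = 0.0499), close to the threshold. Wars, tryptophanyl-tRNA synthetase, was higher at night (24.7 ± 2.10 against 17.8 ± 2.39 CPM, log2 difference 0.47, adjusted p = 0.0111). Sesn2, a leucine sensor, was lower (7.10 ± 1.76 against 11.9 ± 2.79 CPM, log2 difference -0.75, adjusted p = 0.0177; up to 0.0615, lost in 3 of the 12 fits without 1 library).

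The genes whose daily pattern was nearest were sought for Slc3a1 and Slc38a4, which had the largest ranges among the members called in the 24 h test. The measure was the root mean square difference of centred log2 CPM over 12 libraries. Candidates were 9187 genes of at least 5 CPM. The 8 members, and genes named by a clone, model or identifier, were left out of them. Nearest to Slc3a1 were Lrg1, which encodes a secreted glycoprotein (difference 0.29), a row labelled Y_RNA, a name shared by small non-coding RNAs (0.35), Slc41a2, a magnesium transporter gene (0.35), and Saa4, a serum amyloid A gene (0.37). The spread of Slc3a1 itself was 0.65 on this scale. Nearest to Slc38a4, whose own spread was 0.34, were Hbp1, which encodes an HMG-box transcription factor (0.09), Polg2, of the mitochondrial DNA polymerase (0.11), Nedd1, a centrosome gene (0.12), and Trim23 (0.12).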

How the data were processed

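Liver RNA, depleted of ribosomal RNA, was read in pairs from 12 strand-specific libraries, according to the labels. The authors deposited 1 table of raw counts per gene (whole numbers, not normalized). The submitters' processing notes name STAR 2.4.0i and mm10; what did the counting, with which strand setting and annotation, is not given in the sources used here. Of 22618 genes 22054 matched GENCODE M21 by identifier. The counts were tested in edgeR 4.0.16 under R 4.3.3, with TMM scaling and the quasi-likelihood fit (glmQLFit, glmQLFTest). The filter filterByExpr, grouped by time and set to a minimum count of 10 and a total of 15, left 17142 genes. The first design held a 24 h cosine and sine, the second the 6 times with contrasts. Benjamini-Hochberg adjustment ran over every gene tested, with a call at under 0.05. The SE of a contrast is its log2 value over the root of F. Ranges and peak times with their errors are least squares estimates on log2 CPM (prior count 2, 9 residual degrees of freedom). A count of 0 would allow 0.0651 to 0.0864 CPM (3 counts; counting error only).

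Both libraries of a time always differed by more than counting noise, with a chi-square of 15.5 to 92.2 per degree of freedom. All 12 were kept as separate. Separate preparations from the same animal could also differ by more than counting noise, so this does not show different animals. Alternatives were RLE scaling, total counts only, no filter, a mean CPM of at least 1, DESeq2 1.42.0, voom in limma 3.58.1, a replicate block, and left-out libraries. The tests were checked on simulated counts. Named genes are the 8 members and, per list, at most 3 genes called for the 24 h rhythm or for night minus day, by smallest adjusted p; a list without calls gives its 2 genes of highest mean CPM. The members and lists were chosen with earlier results of these data known.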

Additional observations from a re-analysis of the deposited data

Results flagged for a closer look

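For each of the 8 genes the 6 night and the 6 day libraries were searched for a single library far from the rest, by the gap to its nearest neighbour over the whole range (limit 0.625 for 6 libraries). Of 16 such sets 2 had one, and chance alone flags about 1 set in 20. Slc38a2 was at 209 CPM in ZT10 replicate 1, where the other 5 day libraries ran from 78.4 to 116 CPM. Slc3a1 was at 25.6 CPM in ZT02 replicate 2, where the other day libraries ran from 15.4 to 18.4 CPM. The day libraries span 3 times, so a library can stand apart by its time as well as by itself.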

How the results depend on the processing

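Of 840 recomputed values (40 results for the 8 genes, 21 alternatives each), 768 kept their direction and side of the threshold, 29 lost a call, 24 gained one and 19 changed sign. All 19 sign changes were in genes not called: 10 for ZT02 minus ZT22, 5 for ZT14 minus ZT10 and 4 for night minus day. Where a setting changed a result the cause was not tested, except that fewer libraries leave fewer degrees of freedom.

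Counts of called genes moved as follows. DESeq2 called 3416 genes for the 24 h rhythm, 2532 for the 6 times (5 of the 8), 717 for ZT14 minus ZT10 (3 of the 8) and 128 for ZT02 minus ZT22 (1 of the 8). ZT14 minus ZT10 called 1 of the 8 with total counts only, without a filter, with a mean CPM of at least 1, with limma-voom, and under both paired exclusions. ZT02 minus ZT22 called 4 genes with total counts only, 7 without a filter and 7 with limma-voom. Without ZT02 replicate 2 and ZT06 replicate 1, the calls were 1276 for 24 h (2 of the 8), 865 for night minus day (1 of the 8) and 0 for ZT02 minus ZT22. Without ZT02 replicate 1 and ZT06 replicate 2 they were 568 (1 of the 8), 1107 and 25. With total counts only, 1077 of 1701 night minus day calls were higher, against 823 of 1662 with TMM.

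Leaving out 1 library at a time gave 1201 (without ZT14 replicate 2) to 2225 calls for 24 h and 2 to 4 of the 8. For the 6 times it gave 174 (without ZT18 replicate 1) to 897, and 0 to 3 of the 8. For night minus day it gave 611 (without ZT18 replicate 1) to 1818, and 2 to 4 of the 8. For ZT14 minus ZT10 it gave 3 (without ZT14 replicate 1) to 391 (without ZT14 replicate 2), and 0 to 2 of the 8. For ZT02 minus ZT22 it gave 0 to 33 (without ZT22 replicate 2), and 0 of the 8. A time left with 1 library was assumed to vary like the others.

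The log2 values that changed sign with 1 library left out ranged as follows. Night minus day was -0.029 to 0.062 for Slc3a2 and -0.017 to 0.28 for Slc25a15. ZT14 minus ZT10 was -0.067 to 0.073 for Slc3a1, -0.048 to 0.0033 for Slc3a2 and -0.33 to 0.56 for Slc25a15. ZT02 minus ZT22 was -0.0031 to 0.45 for Slc38a2, -0.26 to 0.28 for Slc43a1, -0.22 to 0.055 for Slc3a2 and -0.35 to 0.087 for Slc25a15. Without a filter, ZT14 minus ZT10 of Slc3a1 was -0.019, and with total counts only ZT02 minus ZT22 of Slc43a1 was -0.028. Without ZT02 replicate 2 and ZT06 replicate 1, night minus day of Slc3a2 was -0.0092, and ZT02 minus ZT22 was -0.0058 for Slc38a2 and 0.082 for Slc25a15. Without ZT02 replicate 1 and ZT06 replicate 2, ZT02 minus ZT22 of Slc43a1 was -0.26.

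Replicate numbers are shared across times, and libraries of 1 number deviated together in some pairs of times only: over 15 pairs the correlation ran from -0.22 to 0.50, and it was over 0.1 in 5. The numbers were therefore not taken to pair the libraries. With the replicate block 1896 genes were called for 24 h, 774 for the 6 times, 1609 for night minus day, 215 for ZT14 minus ZT10 and 1 for ZT02 minus ZT22, with 4, 2, 3, 1 and 0 of the 8 genes. The added gene was Slc7a2 in ZT14 minus ZT10.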

Other observations

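The 43 carrier genes that passed the filter, the 8 genes of the report included, summed to 4167 ± 397 CPM at night (SD, n = 6) against 5229 ± 525 by day. The 8 genes made up 64.4% ± 4.13 of this sum at night and 71.3% ± 2.27 by day, with the lowest share in ZT14 replicate 1 (58.3%) and the highest in ZT06 replicate 1 (73.3%). The 8 genes alone summed to 2698 ± 419.9 CPM at night and 3738 ± 482 by day, and the other 35 carriers to 1469 ± 53.0 at night and 1491 ± 51.2 by day. The largest differences within the 8 genes were in Slc7a2 (mean of 432 CPM at night and 923 by day), Slc38a4 (866 and 1233) and Slc38a3 (964 and 1155). Slc38a2 also had a lower mean at night (84.9 and 116), with ZT10 replicate 1 at 209 CPM among its day libraries. The means of Slc3a1, Slc25a15, Slc3a2 and Slc43a1 were higher at night. Of the 8 genes, edgeR called only Slc7a2, Slc38a4 and Slc3a1 for night minus day. The sums were not tested, and the 8 genes and the lists of other carriers were chosen with earlier results of these data known.

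The day libraries of Slc25a15 fell apart by library, a pattern chosen after its values were seen. Replicate 1 was 1.35, 1.62 and 1.85 times replicate 2 at ZT02, ZT06 and ZT10, and 0.983, 0.815 and 1.096 times at ZT14, ZT18 and ZT22. Arg1, which makes ornithine, had ratios of 1.34, 1.73 and 1.43 by day and 0.955, 0.85 and 1.03 at night. Cps1 had 1.22, 1.60 and 1.40 by day and 1.09, 0.966 and 1.123 at night. Arg1 and Cps1 were picked from the 11 urea cycle and glutamine enzymes, and others differed. By day Otc had 1.02, 1.16 and 0.949, Glul 0.935, 1.01 and 0.754, and Aldh4a1 0.927, 1.11 and 0.950. A ratio of at least 1.3 at all 3 day times was seen in 214 of 17142 genes (1.25%), and in 1 of the 11 urea cycle and glutamine enzymes tested, Arg1. The labels repeat the library numbers at every time and do not say what the numbers stand for. Libraries of the same number at ZT02 and ZT06 were more alike than the libraries of the same time, as given above.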
